A study of Mus musculus with 9 samples.

Results

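The mitochondrial ribosomal protein genes are the nuclear genes whose symbols are Mrpl or Mrps followed by a number and, in some, a letter. They were taken from the table by that symbol pattern, with a mean of at least 1 RPKM (reads scaled to the length of the gene model and to the lane's total) over all lanes. All 76 rows that match the pattern passed this level, of 21423 genes in the table and 14051 genes at or above it. The 76 comprise 47 Mrpl symbols, for the large subunit, and 29 Mrps symbols, for the small subunit.

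Messenger RNA was sequenced from punches of the nucleus accumbens, a ventral striatal region of the reward circuit, of adult male C57BL/6 mice aged 2 to 5 months. The saline group received saline (10 ml/kg) by daily intraperitoneal injection for 7 days and was killed 24 h after the last one. The cocaine group received cocaine for 7 days and was also killed at 24 h, and the withdrawal group received the same course and then spent 8 days in the home cage. The labels give cocaine doses of 10 or 20 mg/kg and tie neither to a library. Per group, equal amounts of RNA from 8 mice went into 1 pool and 1 library, which was sequenced in 3 lanes. Each group is therefore 1 library, the lanes are technical runs, and no difference between treatments has a replicate check or a p-value.

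Mitochondria carry their own ribosome, a relative of the bacterial one, with a large and a small subunit. It translates the messenger RNAs of the mitochondrial genome, all of which in mammals encode subunits of the respiratory chain and of ATP synthase. Its RNAs come from the mitochondrial genome, whereas all its proteins are encoded in the nucleus, made in the cytosol and imported. Many have a bacterial counterpart and others are found in mitochondrial ribosomes alone. Neurons rely on oxidative phosphorylation for firing and synaptic transmission.

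The file headers give totals of 26006605 (saline), 24219333 (cocaine) and 19452882 (withdrawal) per library, and single lanes held 5546362 to 12026754. A read in a model of 1 kb was worth 0.0831 to 0.180 RPKM, so a member's level in a library rested on the equivalent of 78 to 5234 reads. The 12 medium spiny neuron markers, which define the main cell type of the nucleus accumbens, were all above 1 RPKM in the mean of the lanes. Their summed level was 2056 to 2157 RPKM in the saline lanes, 1505 to 1595 in cocaine and 1822 to 1838 in withdrawal. Summed markers of cortical projection neurons, 3 of 6 of which reached 1 RPKM, measured 22.6 to 25.4, 8.81 to 11.8 and 6.97 to 8.26 RPKM in the same order. The 6 endothelial markers summed to 38.9 to 39.5, 53.0 to 56.8 and 59.5 to 70.1 RPKM. Oligodendrocyte markers (6 of 6 at 1 RPKM) summed to 1686 to 1705, 1580 to 1629 and 1511 to 1516, astrocyte markers (6 of 6) to 499.3 to 512.3, 560.8 to 566.9 and 546.1 to 556.6, microglial markers (6 of 6) to 80.7 to 90.0, 73.7 to 78.1 and 71.5 to 77.2, and erythrocyte markers (4 of 6) to 302.5 to 325.8, 398.4 to 438.4 and 222.1 to 244.9 RPKM. The largest part of the astrocyte sum is Slc1a2, with a mean of 320 RPKM. Of the 6 astrocyte markers, 3 lay above saline in all cocaine lanes and 3 below, and the same counts held for withdrawal. Choroid plexus markers, 2 of 6 of which reached 1 RPKM, summed to 6.78 to 10.5, 12.8 to 16.7 and 7.15 to 10.2 RPKM. Of these 2, Ttr, at means of 2.37, 7.51 and 0.949 RPKM, was called higher in cocaine than in saline and lower in withdrawal than in cocaine. Clic6, the other, had means of 5.31, 4.94 and 5.66 RPKM and no call. In cocaine minus saline, Ppp1r1b, Tac1 and Slc17a7 were also called lower, and Flt1, Tek, Cdh5 and Alas2 higher. In withdrawal minus saline, Slc17a7 and Fezf2 were called lower, and Pde10a and all 6 endothelial markers higher. In withdrawal minus cocaine, Alas2, Hba-a1, Hbb-b1 and Hbb-b2 were called lower beside Ttr. No listed marker found in the table was at 0 in all lanes.

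Promoter sequence is shown for 4 members, chosen for the sets of letters named below. Of these, Mrpl34, Mrpl52 and Mrpl32 are among the members called lower in cocaine, so they do not stand for all members with these letters. Whether promoter sequence bears on the differences described further on was not tested. RefSeq (GRCm38.p6, another build than the mm9 named for the files) gave a window from 250 bases before to 50 after the annotated start for 67 of the 76 members. Each window was searched on both strands for 3 sets of letters known from promoters of mitochondrial genes. These were GCGCATGC (reverse complement GCATGCGC) of nuclear respiratory factor 1, CCGGAAG of the ETS family to which GABP belongs, and ATGGCGGC of YY1. The NRF1 letters and their reverse complement overlap where they form a palindrome. The lines give the 150 bases just before the start, in the direction of the gene, with matches in capitals.
Mrpl34: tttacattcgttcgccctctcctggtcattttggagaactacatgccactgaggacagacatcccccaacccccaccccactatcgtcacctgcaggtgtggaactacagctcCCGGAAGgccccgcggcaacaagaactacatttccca
Mrpl52: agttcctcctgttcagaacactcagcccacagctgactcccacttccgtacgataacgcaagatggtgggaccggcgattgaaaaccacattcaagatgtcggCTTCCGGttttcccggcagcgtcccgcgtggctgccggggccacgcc
Mrpl32: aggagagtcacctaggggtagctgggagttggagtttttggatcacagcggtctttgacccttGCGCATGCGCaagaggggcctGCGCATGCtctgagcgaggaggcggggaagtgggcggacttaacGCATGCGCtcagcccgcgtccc
Mrpl22: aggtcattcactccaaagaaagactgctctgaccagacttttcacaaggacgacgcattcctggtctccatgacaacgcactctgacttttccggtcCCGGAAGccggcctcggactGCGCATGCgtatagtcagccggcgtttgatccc

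Mrpl34 (chr8:71464776-71464925, plus strand) and Mrpl52 (chr14:54426759-54426908, plus strand) were lower in the cocaine library and show the ETS letters in opposite orientations. The match shown begins at position -37 in Mrpl34 and -47 in Mrpl52, with -1 as the last base before the start. Mrpl52 has another ETS match after the start, outside the stretch shown. Mrpl32 (chr13:14613038-14613187, minus strand), also lower, has the NRF1 letters at -87, -85, -66 and -22, the first pair overlapping. Members with NRF1 letters were less lowered in cocaine than those without, with medians of -0.16 and -0.40. Mrpl22 (chr11:58171514-58171663, plus strand) is the 1 member with all 3 motifs, ETS at -53, NRF1 at -33 and YY1 after the start, outside the stretch shown. The ETS letters were in 23 of 67 member windows (34.3%), against 9.12% of 27025 RefSeq promoters of the same length and 16.8% of the 9527 promoters of compared genes. YY1 letters were in 12 (17.9%, against 2.38% and 4.92%) and NRF1 letters in 8 (11.9%, against 2.80% and 5.26%). Of the 67 windows, 34 held none of the 3, 24 held 1, and 8 held 2. These are matches of letters in a fixed window, not binding sites.

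Levels of the members spanned 33.7-fold. Mean RPKM over the 9 lanes ran from 2.59 for Mrpl23 to 87.0 for Mrps17, with a median of 15.5, against 9.24 over all compared genes. RPKM is per length, so these levels can be set beside each other, with a limit. Of the 76 deposited gene models, 16 were over 1.5 times as long as the GENCODE transcript of that gene nearest to them in length. Over all compared genes, 2217 of 14051 were. A model that is too long lowers the RPKM of its gene. Model lengths of members ran from 523 to 6724 bp with a median of 1753 bp, against 3531 bp for all compared genes.

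The highest members were of both subunits. Mrps17, a small-subunit protein with a bacterial counterpart, gave 91.9, 92.3 and 90.0 RPKM in the 3 saline lanes, 78.9, 94.3 and 73.5 in cocaine and 92.0, 81.3 and 89.1 in withdrawal, and the libraries overlap. Mrpl4, which lines the tunnel through which the new protein leaves, gave 66.8, 68.9 and 68.3 in saline, 56.8, 51.8 and 58.3 in cocaine and 56.0, 54.9 and 61.1 in withdrawal. Its saline lanes lie above all others. Mrpl27, near the peptidyl transferase centre, averaged 57.4 RPKM over the 9 lanes, Mrpl2, at the same centre, 56.2, and the small-subunit protein Mrps33 55.3. In RefSeq, Mrpl27 overlaps Eme1 and has a named pseudogene, and Mrpl2 overlaps Klc4. How reads shared with these were assigned is not known here, which limits both levels.

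The lowest were Mrpl23 at 2.59, Mrpl13 at 2.87, Mrpl1 at 4.11, Mrps31 at 4.52 and Mrpl33 at 4.95 RPKM. Mrpl13 gave 3.90, 3.56 and 2.69 RPKM in saline, 2.59, 2.75 and 2.65 in cocaine and 2.28, 2.31 and 3.10 in withdrawal, so its libraries overlap. Mrpl23, a protein at the tunnel exit, is uncertain in level for a further reason, because the table also lists its pseudogene Mrpl23-ps1 at 30.1 RPKM. That row matches no member pattern and read 38.1, 35.2 and 38.5 RPKM in saline, 20.4, 25.6 and 30.5 in cocaine and 27.0, 23.4 and 31.8 in withdrawal. How reads were divided between gene and pseudogene is not given in the sources used here.

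**Figure D1:**
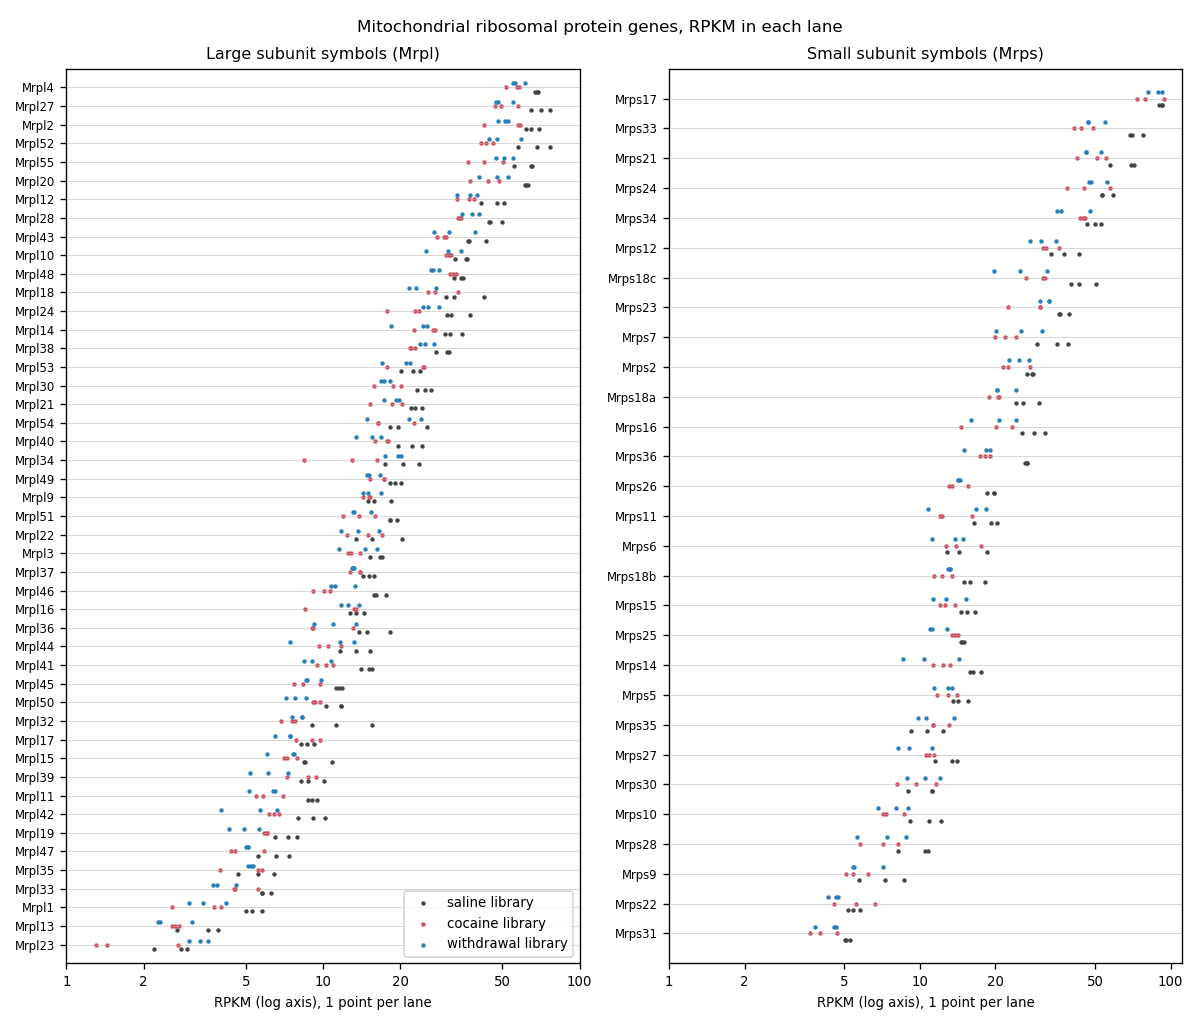
RPKM of each of the 76 members on a log axis, with 1 point per lane for the saline, cocaine and withdrawal libraries (3 lanes each), the 47 Mrpl genes on the left and the 29 Mrps genes on the right, ordered by mean level. Saline points lie to the right of the other libraries for most genes, while genes such as Mrps17 and Mrps35 overlap.

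Summed over the 76 members, RPKM was lower in both drug libraries than in saline. The saline lanes summed to 1934, 1994 and 1932 RPKM, the cocaine lanes to 1543, 1504 and 1510 and the withdrawal lanes to 1567, 1520 and 1552. No saline lane comes near the other libraries, and the cocaine and withdrawal lanes lie side by side, with means of 1519 ± 21.2 and 1546 ± 24.0 (SD over 3 lanes of 1 library) against 1953 ± 35.0 in saline. In pooled tissue, fewer cells of a type and less RNA per cell cannot be told apart.

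The comparison of cocaine with saline asks what differs 24 h after repeated cocaine. On the log2(RPKM + 0.5) scale, which understates differences of low genes, 73 of 76 members were lower in cocaine, against 56.5% of all compared genes. The median difference was -0.34 (quartiles -0.46 and -0.20), against -0.047 over all compared genes. Calls required 1.5 times between the means and lanes of the 2 libraries that did not overlap. By this rule 8 members (10.5%) were called lower, where 2.41% of all compared genes were, and 0 were called higher, where 2.93% were. Without the size limit, all cocaine lanes lay below all saline lanes for 52 members (68.4%, against 23.9% of compared genes) and above them for 0 (against 18.3%), and the lanes of the other 24 overlapped. With a size limit of 25%, 36 members were called lower, against 12.1% of compared genes.

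Most of the members called lower in cocaine belong to the large subunit, as most members do. Mrpl34, a small protein with a bacterial counterpart, read 20.6, 23.6 and 17.5 RPKM in saline, 16.2, 8.43 and 13.0 in cocaine and 20.1, 17.5 and 19.6 in withdrawal. Its cocaine lanes are the lowest, and the withdrawal lanes lie among those of saline. The difference from saline was -0.73 ± 0.29 (standard error over lanes, a measure of sequencing error alone) in cocaine and fell to -0.48 without the second cocaine lane.

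Mrpl46, a mitochondria-specific protein with a Nudix-like fold, read 15.8, 17.7 and 16.1 RPKM in saline, 10.1, 9.14 and 10.7 in cocaine and 10.8, 11.1 and 13.3 in withdrawal. Every saline lane is above every other lane, and the cocaine difference was -0.70 ± 0.079. Mrps33, a mitochondria-specific protein of the small subunit, read 70.0, 77.7 and 68.5 RPKM in saline, 41.3, 44.1 and 48.9 in cocaine and 46.6, 46.6 and 54.5 in withdrawal. Saline is again apart, with a difference of -0.68 ± 0.089 in cocaine. Calls of these 2 genes held when any 1 lane was left out.

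Mrps7, which organises the head of the small subunit, read 29.3, 35.1 and 39.1 RPKM in saline, 21.8, 24.3 and 20.0 in cocaine and 30.7, 25.4 and 20.0 in withdrawal. Only its cocaine lanes are clear of saline (-0.63 ± 0.14). Its model overlaps those of Gga3 and Mif4gd in RefSeq, and how reads of overlapping genes were assigned is not given in the sources used here. Mrpl24, an early-binding protein at the tunnel exit, read 31.4, 37.5 and 30.6 RPKM in saline, 17.8, 23.6 and 22.9 in cocaine and 25.8, 28.4 and 24.6 in withdrawal. The 3 libraries of Mrpl24 do not overlap, cocaine being lowest (-0.62 ± 0.16) and withdrawal between, and this gene overlaps Rrnad1.

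Mrpl52, whose promoter is shown above, read 68.2, 57.8 and 76.9 RPKM in saline, 43.4, 45.8 and 41.2 in cocaine and 59.1, 44.6 and 47.7 in withdrawal. Cocaine is below saline in every lane (-0.62 ± 0.13), and a withdrawal lane reaches into the saline range. Mrpl32, which the m-AAA protease trims before it joins the ribosome, read 11.3, 15.6 and 9.07 RPKM in saline, 7.78, 6.87 and 7.56 in cocaine and 8.28, 8.26 and 7.56 in withdrawal. Saline is higher but spread widely, and the cocaine difference was -0.63 ± 0.22. Mrpl1, of the mobile stalk beside the tRNA exit site, read 4.99, 5.80 and 5.28 RPKM in saline, 2.57, 3.75 and 4.02 in cocaine and 3.41, 4.17 and 3.01 in withdrawal, with a cocaine difference of -0.59 ± 0.18. Leaving out the second saline lane ended the calls of Mrpl1, Mrpl24 and Mrpl32, leaving out the third saline lane those of Mrpl52 and Mrps7, the first cocaine lane those of Mrpl1 and Mrpl24, the second those of Mrpl32 and Mrpl34, and the third that of Mrps7. Without the first cocaine lane the difference of Mrpl1 was -0.42.

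At the other end, 3 members were not lower in cocaine. Mrps35, of the small subunit, read 9.23, 12.4 and 10.7 RPKM in saline, 11.2, 13.0 and 11.3 in cocaine and 9.78, 13.6 and 10.6 in withdrawal, and the libraries overlap (0.14 ± 0.13). Mrpl17 (0.03 ± 0.10) and Mrps22 (0.02 ± 0.15) had differences within their standard errors, as had Mrpl53 (-0.00 ± 0.17) and Mrps6 (-0.04 ± 0.20).

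**Figure D2:**
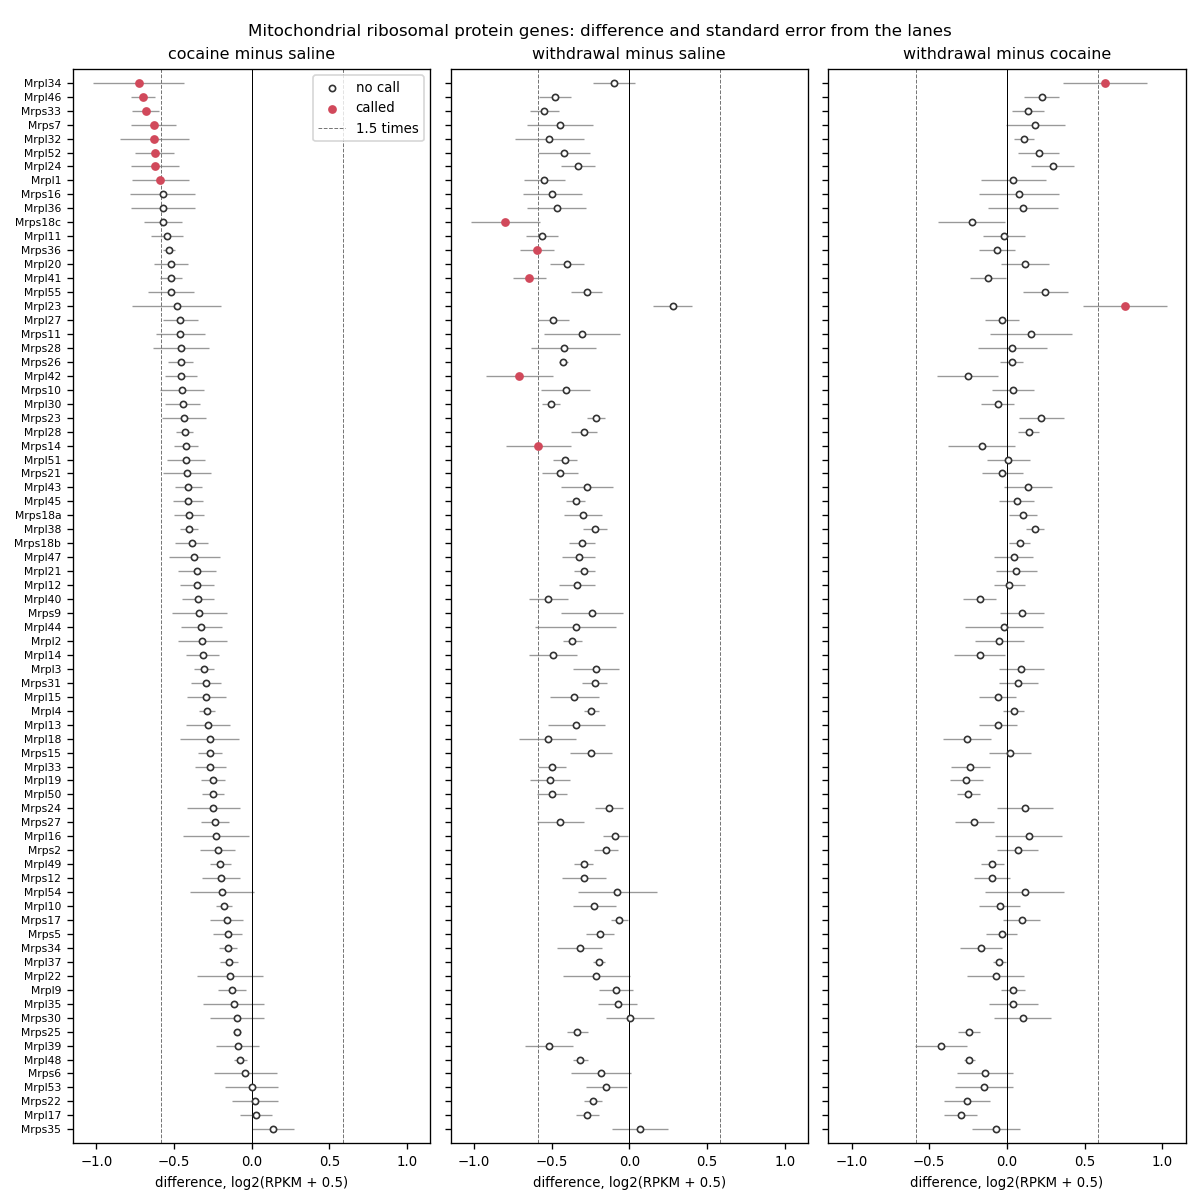
Difference between libraries on the log2(RPKM + 0.5) scale for each of the 76 members, ordered by cocaine minus saline in all panels, with bars for the standard error from the 3 lanes of each library and dashed lines at 1.5 times. Nearly all points of the left and middle panels lie left of 0, with 8 and 5 called, while the right panel is centred near 0 with 2 called.

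Subunits and kinds of protein had like medians in cocaine. The median was -0.35 over the 47 Mrpl genes, 6 of them called, and -0.34 over the 29 Mrps genes, 2 of them called. It was -0.34 over the 45 members with a bacterial counterpart and -0.34 over the 28 classed as mitochondria-specific, among which Mrps18b, a relative of bacterial S18, was counted. The other 3, Mrps18a, Mrps30 and Mrps36, carry small-subunit symbols but are known from elsewhere, Mrps18a and Mrps30 from the large subunit and Mrps36 from the 2-oxoglutarate dehydrogenase complex. This grouping was made after the data were seen.

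Gene model length moved with the difference. Across all 14051 compared genes, longer models had higher values in cocaine minus saline (Spearman's rho 0.46 across genes, which are not independent and share these libraries), and the members have short models. Within the members rho was 0.36 over 76 genes, with a median of -0.37 in the 38 with shorter models and -0.29 in the 38 with longer ones. When each gene was set against the median of its length class (20 classes of all compared genes), the member median was -0.17, 57 of 76 lay below 0 (50% of all genes do by construction), and all lanes were lower for 31 members, against 16.3% of compared genes. No member was then called. The centred median was -0.13 in the 38 members with shorter models, with all lanes lower for 9, and -0.25 in the 38 with longer models, with all lanes lower for 22.

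**Figure D3:**
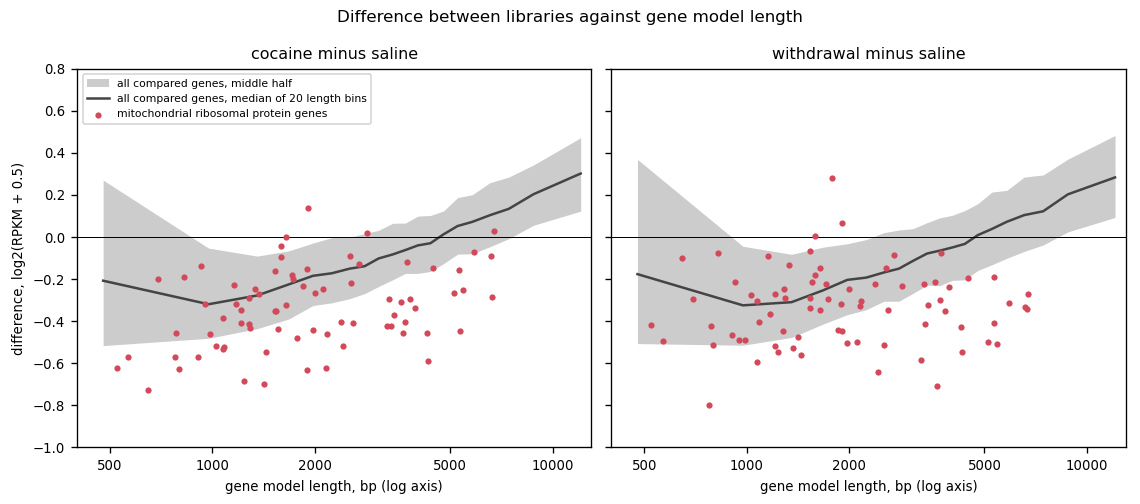
Difference from saline on the log2(RPKM + 0.5) scale against gene model length in bp (log axis) for cocaine (left) and withdrawal (right), with 1 red point per member, the median of all compared genes in 20 length classes as a line and the span between their quartiles in grey. The line rises with length, and most members with long models lie under it.

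Scaling also bears on the count. Over all compared genes 411 were called higher and 338 lower in cocaine. This split became 505 and 230 after centring on the median of all genes, 535 and 204 after scaling to the 75th percentile, 493 and 234 centred within classes of GC content and 477 and 98 centred within length classes. Members called lower under these were 3, 3, 5 and 0, and none was called higher. Beside this, the median of the 12 medium spiny neuron markers in cocaine minus saline was -0.30, with 10 of them below 0. The 3 cortical markers compared had a median of -0.30, 2 of them below 0, and the 6 endothelial ones 0.64, all above 0. Of the cortical ones, Slc17a7 was called lower (-1.64 ± 0.078), while Fezf2 (-0.30 ± 0.22) and Tbr1 (0.04 ± 0.23) had no call. The part of the marker genes in the result was not tested.

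Withdrawal against saline sets a library taken 8 days after the last cocaine injection beside one taken 24 h after the last saline injection. Cocaine and time since the last injection differ together here and cannot be told apart. Members were lower by a median of -0.33 (quartiles -0.48 and -0.22), against -0.056 over all compared genes, and 73 of 76 were lower, against 56.6%. This comparison uses the same saline library as the one before. Called lower were 5 members (6.58%, against 3.37% of compared genes), and 0 were called higher (against 3.96%). All withdrawal lanes lay below saline for 49 members (64.5%, against 25.6%) and above for Mrpl23 alone (18.6% of compared genes were), and 26 overlapped. With a size limit of 25%, 34 were called lower, against 15.2%.

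Mrps18c had the largest difference. It is 1 of 3 relatives of a single bacterial protein, S18, and read 39.9, 50.1 and 43.1 RPKM in saline, 30.8, 31.5 and 26.6 in cocaine and 19.7, 25.1 and 32.2 in withdrawal. Saline is highest in every lane, with differences of -0.80 ± 0.22 in withdrawal and -0.57 ± 0.12 in cocaine. Its relatives were lower too, but under the size limit. Mrps18a read 24.2, 25.8 and 29.9 RPKM in saline, 20.6, 18.8 and 20.5 in cocaine and 20.3, 24.1 and 20.2 in withdrawal (-0.30 ± 0.12). Mrps18b read 14.9, 18.2 and 15.9 in saline, 12.2, 11.4 and 13.5 in cocaine and 13.2, 12.9 and 13.2 in withdrawal (-0.30 ± 0.082). For both, all saline lanes exceed all others.

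Mrpl42, a mitochondria-specific protein, read 7.96, 9.12 and 10.1 RPKM in saline, 6.77, 6.45 and 6.17 in cocaine and 4.02, 6.61 and 5.70 in withdrawal. Both drug libraries lie under saline, and the withdrawal difference was -0.71 ± 0.22 and -0.52 without the first withdrawal lane, which ended the call. Mrpl41, a mitochondria-specific protein also studied as a partner of Bcl2, read 15.1, 14.1 and 15.5 RPKM in saline, 11.0, 10.3 and 9.45 in cocaine and 10.8, 9.02 and 8.40 in withdrawal. Again no drug lane reaches saline (-0.64 ± 0.11 in withdrawal, -0.52 ± 0.072 in cocaine).

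Mrps36, placed elsewhere as stated above, read 26.7, 26.1 and 26.6 RPKM in saline, 19.1, 17.4 and 18.2 in cocaine and 19.1, 14.9 and 18.4 in withdrawal. The drug lanes all lie under saline (-0.59 ± 0.11 in withdrawal, -0.53 ± 0.040 in cocaine), and RefSeq lists 3 pseudogenes named for it. Mrps14, a head protein of the small subunit, read 16.4, 15.8 and 17.6 RPKM in saline, 11.2, 12.4 and 13.2 in cocaine and 14.3, 10.4 and 8.59 in withdrawal. Withdrawal is below saline in every lane but spread (-0.59 ± 0.21). Leaving out the third withdrawal lane ended the calls of Mrpl41 and Mrps14 (-0.42), the second those of Mrps14 and Mrps36, and the third saline lane that of Mrps14, while the call of Mrps18c held without any 1 lane.

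The members above saline in withdrawal were Mrpl23 (0.28 ± 0.13), Mrps35 (0.07 ± 0.18) and Mrps30 (0.01 ± 0.16). Mrpl23 read 2.95, 2.19 and 2.79 RPKM in saline, 2.72, 1.43 and 1.30 in cocaine and 3.01, 3.33 and 3.55 in withdrawal. All of its withdrawal lanes exceed all others, at a level where the pseudogene limit stated above applies. Next in order were Mrps17 (-0.06 ± 0.054) and Mrpl35 (-0.07 ± 0.13).

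Length again moved with the difference over all compared genes (rho 0.42), but little within the members (rho 0.067 over 76 genes), whose shorter and longer 38 had medians of -0.32 and -0.33. Centred within length classes, the member median was -0.15, 56 of 76 lay below 0 (against 50%), all lanes were lower for 23 (against 18.1% of compared genes) and Mrpl42 was the 1 member called. All compared genes divided into 557 called higher and 473 lower, and into 729 and 309 after centring on the median, 765 and 280 with 75th percentile scaling, 734 and 294 by GC class and 595 and 175 by length class. Members called lower were then 3, 2, 2 and 1, with none higher. The medium spiny neuron markers had a median of 0.036 in withdrawal minus saline, 6 above and 6 below 0, although their summed RPKM was lower. The 3 cortical markers had a median of -0.74, all below 0, and the 6 endothelial ones 0.78, all above 0. Of the cortical ones, Slc17a7 (-2.08 ± 0.12) and Fezf2 (-0.74 ± 0.23) were called lower, and Tbr1 (-0.39 ± 0.13) was not. The part of the marker genes in the result was not tested.

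**Figure D4:**
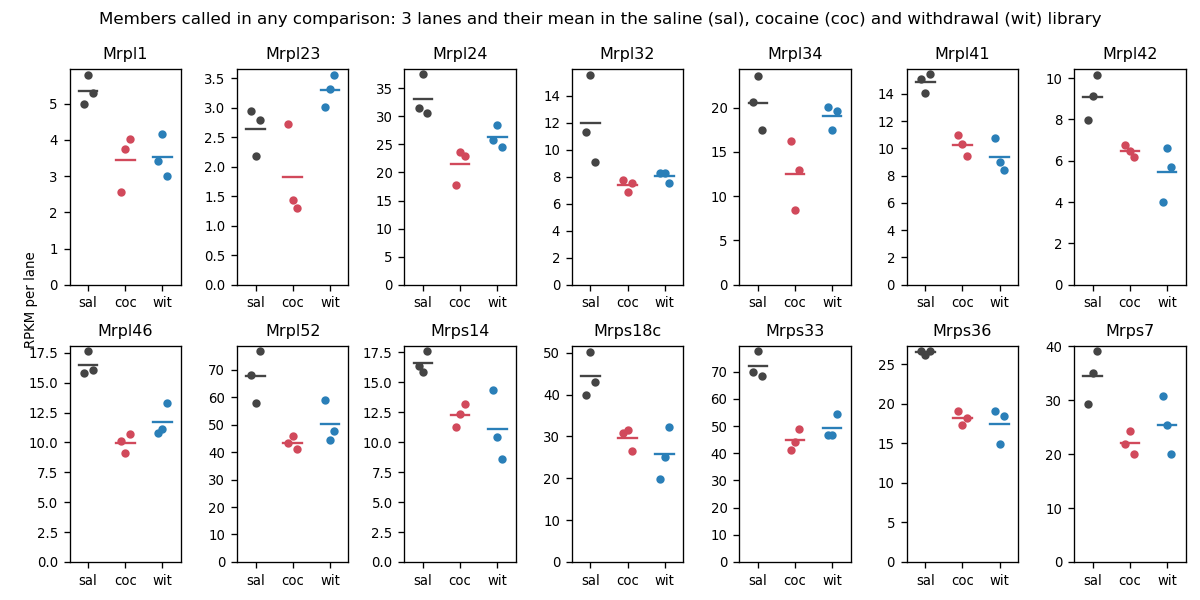
RPKM of the 14 members called in any comparison, with 1 point per lane and a bar at the mean of the 3 lanes of the saline, cocaine and withdrawal libraries, each panel starting at 0. The saline mean is highest in every panel but that of Mrpl23, and Mrpl23, Mrpl24, Mrpl34 and Mrpl46 have every withdrawal lane above every cocaine lane.

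Withdrawal against cocaine sets 8 days after the last of the daily injections beside 24 h. The members were centred near 0, with a median of 0.026 against -0.0074 over all compared genes, and 41 were higher and 35 lower in withdrawal (46.1% lower, against 52.1%). Called higher were 2 members (0.47% of compared genes were), and 0 were called lower (0.548% were). Lanes overlapped for 64 members, withdrawal was above cocaine in all lanes for 7 (8.66% of compared genes) and below for 5 (9.42%). The 2 called were Mrpl23 (0.76 ± 0.27), whose lanes are given above, and Mrpl34 (0.63 ± 0.27). Without the second cocaine lane Mrpl34 differed by 0.38 and was no longer called. The 12 medium spiny neuron markers had a median of 0.34, all above 0, with withdrawal above cocaine in all lanes for 11. The 3 cortical markers had a median of -0.43, all below 0, and the 6 endothelial ones 0.16, 5 of them above 0. The 4 erythrocyte markers compared had a median of -0.82 and were all called lower. The part of the marker genes in the result was not tested.

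After Mrpl23 and Mrpl34, the members Mrpl24 (0.29 ± 0.14), Mrpl55 (0.25 ± 0.15) and Mrpl46 (0.22 ± 0.11) came next. The lowest were Mrpl39 (-0.42 ± 0.17), a relative of threonyl-tRNA synthetases, Mrpl17 (-0.30 ± 0.11), Mrpl19 (-0.26 ± 0.10), Mrpl18 (-0.26 ± 0.16) and Mrps22 (-0.25 ± 0.15). Mrpl39 read 8.71, 8.24 and 10.1 RPKM in saline, 7.22, 8.78 and 9.39 in cocaine and 5.21, 7.29 and 6.09 in withdrawal, so a withdrawal lane just reaches the lowest cocaine lane. The 5 with every withdrawal lane below cocaine were Mrpl17, Mrpl19 and, named here because their values had been seen, Mrpl48, Mrpl50 and Mrps25.

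Mrpl12, Mrps12 and Mrpl44 have well-studied roles in the ribosome. Mrpl12, of the stalk that recruits translation factors and a partner of the mitochondrial RNA polymerase, read 47.8, 50.7 and 41.3 RPKM in saline, 37.2, 38.7 and 33.2 in cocaine and 39.8, 37.4 and 33.2 in withdrawal. Both drug libraries are below saline in every lane, by -0.35 ± 0.11 and -0.34 ± 0.12. Mrps12, of the decoding centre, read 37.6, 33.3 and 43.1 RPKM in saline, 35.9, 31.8 and 31.1 in cocaine and 30.4, 34.8 and 27.6 in withdrawal, with overlapping lanes (-0.20 ± 0.13 and -0.29 ± 0.14). Mrpl44, a protein with a ribonuclease III-like fold, read 13.5, 15.3 and 11.7 RPKM in saline, 9.68, 10.5 and 11.7 in cocaine and 13.2, 7.44 and 11.6 in withdrawal, also with overlap (-0.33 ± 0.13 and -0.34 ± 0.26).

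RefSeq places another gene over 24 members and lists a named pseudogene for 4. Likeness of sequence to other genes was not searched. Over the 50 members with neither an overlapping gene nor a named pseudogene, the median was -0.36 in cocaine minus saline, with 47 below 0 (against 56.5% of compared genes) and 6 called lower (against 2.41%), and -0.33 in withdrawal minus saline, with 48 below 0 (against 56.6%) and 4 called lower (against 3.37%). By promoter letters, medians of cocaine minus saline were -0.40 in the 23 members with ETS letters and -0.34 without, -0.16 in the 8 with NRF1 letters and -0.40 without, and -0.15 in the 12 with YY1 letters and -0.41 without. In withdrawal minus saline they were -0.30 and -0.33 for ETS, -0.29 and -0.34 for NRF1, and -0.20 and -0.34 for YY1. These are descriptions of small groups, with no test.

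Mitochondrial ribosomal proteins under other symbols had values near those of the members. All 7 listed (Dap3, Ptcd3, Chchd1, Aurkaip1, Gadd45gip1, Ict1 and Mrp63) were lower than saline in both drug libraries, with a median of -0.35 in each and 0 called. Ict1, a peptidyl-tRNA hydrolase built into the large subunit, was lowest in both (-0.52 ± 0.12 in cocaine, -0.43 ± 0.12 in withdrawal). The least different were Ptcd3 in cocaine (-0.18 ± 0.068) and Mrp63 in withdrawal (-0.25 ± 0.22).

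Factors that build the mitochondrial ribosome had medians nearer to 0. The 23 assembly and RNA modification genes found of 25 had medians of -0.10 in cocaine and -0.18 in withdrawal minus saline. Of these, 1 was called, Rbfa, which matures the small subunit, at 12.1 ± 1.21 RPKM in saline, 7.69 ± 1.29 in cocaine and 8.86 ± 1.02 in withdrawal (SD over 3 lanes), or -0.63 ± 0.16 in cocaine. At the other ends stood the RNA pseudouridine synthase relative Rpusd3 in cocaine (0.22 ± 0.38), Mettl17 in withdrawal (0.30 ± 0.10) and Rpusd4 in withdrawal (-0.45 ± 0.39).

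The 15 translation factors found of 16 had medians of -0.069 and -0.072 with 0 called. They ranged in cocaine from the elongation factor Tsfm (-0.48 ± 0.16) to Taco1 (0.36 ± 0.14), which activates translation of cytochrome c oxidase subunit I, and in withdrawal from the elongation factor Gfm2 (-0.35 ± 0.15) to the insertase Oxa1l (0.03 ± 0.049). The 19 mitochondrial aminoacyl-tRNA synthetases and related genes found of 20 had medians of -0.018 and -0.049. Rars2, the arginine enzyme, was the 1 called, lower in withdrawal (-0.61 ± 0.21), with 8.88 ± 0.57 RPKM in saline, 8.40 ± 2.21 in cocaine and 5.75 ± 1.51 in withdrawal. Wars2 was highest in both (0.66 ± 0.32 and 0.54 ± 0.30) with overlapping lanes, and Sars2 lowest in cocaine (-0.29 ± 0.10).

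Genes of mitochondrial DNA transcription and replication, 9 found of 12, had medians of -0.20 and -0.27 with 0 called. The extremes were Mterf (-0.42 ± 0.087) and Polrmt (0.08 ± 0.081) in cocaine and Polg2 (-0.52 ± 0.27) and Polg (0.32 ± 0.096) in withdrawal. The 10 transcription factors linked to mitochondrial genes had medians of 0.17 and 0.19, also with 0 called. Gabpb2, a subunit of GABP, was highest in withdrawal (0.53 ± 0.096) and Gabpb1, another, lowest (-0.40 ± 0.17). In cocaine Esrrg was highest (0.34 ± 0.098) and Esrra lowest (-0.23 ± 0.065), both estrogen-related receptors.

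Centred within length classes, the medians in cocaine and withdrawal minus saline were -0.21 and -0.16 for the ribosomal proteins under other symbols, -0.026 and -0.048 for assembly genes, -0.0072 and 0.027 for translation factors, 0.074 and 0.083 for synthetases, -0.097 and -0.12 for the DNA genes and 0.063 and 0.15 for the transcription factors. The sign thus turned for the synthetases in both and for the translation factors in withdrawal.

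In withdrawal minus cocaine these lists had medians between -0.069 and 0.071, and 0 genes of them were called. Their extremes were Mrp63 (0.18 ± 0.22) and Ptcd3 (-0.22 ± 0.15) among ribosomal proteins under other symbols, Mpv17l2 (0.21 ± 0.22) and Rpusd4 (-0.31 ± 0.31) among assembly factors, and Mtfmt (0.19 ± 0.12) and Taco1 (-0.44 ± 0.10) among translation factors. For the synthetases they were Sars2 (0.39 ± 0.13) and Rars2 (-0.51 ± 0.30), for the DNA genes Top1mt (0.26 ± 0.090) and Polg2 (-0.56 ± 0.20), and for the transcription factors Yy1 (0.27 ± 0.23) and Gabpb1 (-0.41 ± 0.21).

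Other families with short, abundant transcripts are given beside the members, without a test of a difference between families. Over the 74 cytosolic ribosomal protein genes the median was -0.47 in cocaine minus saline with 12 called lower (16.2%, against 2.41% of compared genes), and -0.50 in withdrawal minus saline with 20 called lower (27.0%, against 3.37%). The 79 genes of oxidative phosphorylation had medians of -0.42 with 12 called lower (15.2%) and -0.41 with 11 (13.9%). Centred within length classes these medians were -0.24 and -0.26 for the cytosolic genes and -0.20 and -0.21 for oxidative phosphorylation, where the members had -0.17 and -0.15. None of the 3 families had a gene called higher than saline, and their median model lengths were 1119, 1194 and, for the members, 1753 bp.

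**Figure D5:**
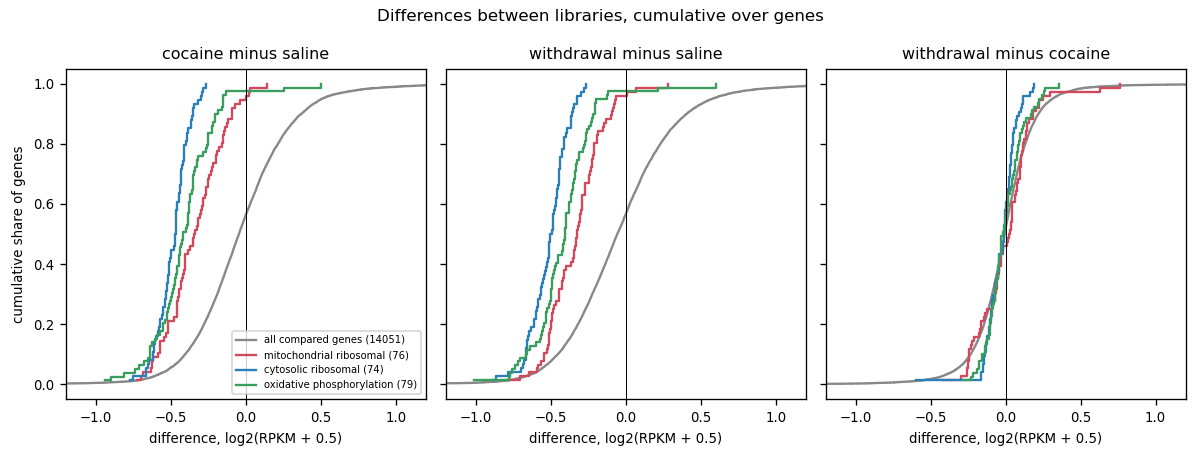
Cumulative share of genes against the difference on the log2(RPKM + 0.5) scale for all 14051 compared genes, the 76 members, 74 cytosolic ribosomal protein genes and 79 oxidative phosphorylation genes, with 1 panel per comparison. In the first 2 panels all 3 families lie left of the curve of all genes, and in withdrawal minus cocaine the curves cross near 0.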

How the data were processed

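Sample titles gave the groups and lane numbers. RPKM was computed by the authors per lane and per library and deposited with totals, per the file headers; 1 table and 12 other files held identical values. Per the submitters' processing notes the aligner was Bowtie 0.12.7 and the build mm9, and the counter and the annotation are not given in the sources used here. Libraries were random-primed from poly(A) RNA with inserts of about 200 bp and read for 37 cycles per end, per the labels' protocols; reads counted in several genes or on both strands cannot be told apart. Reads are not whole in these values, so no count test was run.

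Values were transformed to log2(RPKM + 0.5) and averaged over 3 lanes for genes at a mean of at least 1 RPKM. Calls needed 1.5 times and no overlap of lanes. Precision was a median SD between lanes of 0.124 to 0.151 (log2) over members. Model length was recovered from the steps of the RPKM values, and GC content came from the reference for 98.2% of compared genes and 100% of members. Alternatives were pseudocounts of 0.1 and 1, a filter at 5 RPKM or none, limits of 25% and 2 times, no lane condition, 2 scalings, composite values, centring within 20 classes of length or GC, a block on lane number, and leaving out each lane. The calls and centring were tried on simulated lanes with set differences. These held the lane spread of saline and none between libraries or mice, so they cannot show how often calls between single libraries are wrong. Python 3.11.15, numpy 2.4.6, pandas 2.3.3 and matplotlib 3.10.9 were used.

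The members, lists and rules were chosen with earlier results of these data known. Named were all called members, the 5 highest and 5 lowest by difference per comparison and by level, Mrps18a, Mrps18b, Mrps18c, Mrps12, Mrpl12 and Mrpl44, and, of the pathway lists, called genes and the extremes of each comparison. Mrpl22 and the promoters shown were chosen for their motifs, and those of Mrpl34, Mrpl52 and Mrpl32 belong to members called lower in cocaine.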

Additional observations from a re-analysis of the deposited data

How the results depend on the processing

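With 1 library per group, every difference describes these pools of RNA, and low members rest on few reads. Cocaine minus saline, 8 members called: the count was 36 at a limit of 25% (12.1% of compared genes lower), 0 at 2 times, 3 with the median set to 0, 3 with 75th percentile scaling, 5 by GC class and 0 by length class, and 7 to 11 when a lane was left out. The member median of -0.34 was -0.27 with 75th percentile scaling, -0.17 by length class and -0.29 by GC class. Withdrawal minus saline, 5 called: the count was 34 at 25% (15.2% of compared genes lower), 0 at 2 times, 3 with pseudocount 1, 3 with the median set to 0, 2 with 75th percentile scaling, 2 by GC class, 1 by length class and 4 to 9 with a lane left out, being 9 without the first saline or the first withdrawal lane and 8 without the second withdrawal lane. The median of -0.33 was -0.27 with the median set to 0, -0.26 with 75th percentile scaling, -0.15 by length class and -0.26 by GC class. Withdrawal minus cocaine, 2 called: the count was 1 at a filter of 5 RPKM, where Mrpl23 drops out, 1 with composite values, 1 by GC class, 0 at 2 times and 1 to 2 with a lane left out. Over the named members' single differences 1983 values kept their side of the call, 71 lost a call, 40 gained one and none changed direction after a call. A value with no call under either setting was counted as kept, and the limits of 25% and 2 times were included. A replicate block on lane number gave 8, 5 and 2 calls, as without it, and changed no member count; deviations of same-numbered lanes correlated between -0.051 and 0.076, so the numbers do not pair the lanes. Over all compared genes, calls in cocaine minus saline were 1374 higher and 1703 lower at 25% and 112 and 34 at 2 times, and in withdrawal minus saline 1563 and 2134, and 146 and 44.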
